A study of Mus musculus with 6 samples.

Results

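Integrins and other receptors for the extracellular matrix were followed through the cells of the mouse proximal pulmonary artery (PA). The set held 34 of the 53647 genes in the deposited tables and was chosen by gene symbol alone, with no measured value in the rule. It comprised 18 integrin alpha chains, 8 integrin beta chains, the 4 syndecans, and 4 further receptors, namely dystroglycan (Dag1), the discoidin domain receptors Ddr1 and Ddr2, and Cd44.

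Integrins work as pairs of 1 alpha and 1 beta chain that span the plasma membrane and tie matrix proteins outside the cell to the actin cytoskeleton inside. The alpha chain largely sets which ligand is bound, such as collagen, laminin, fibronectin or a counter-receptor on another cell. Syndecans carry heparan sulfate chains, dystroglycan binds laminin, discoidin domain receptors are collagen-activated tyrosine kinases, and Cd44 binds hyaluronan. In arteries these proteins couple the contractile and adventitial cells to the load-bearing wall, and the study asked which cellular changes accompany stiffening of the proximal PA with age.

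Single cell RNA sequencing libraries from 6 wild-type C57BL/6J mice were used. The libraries 3m and f3m came from young mice of 3 months, and 20m, 24m, m27mo and f28m from old mice of 20, 24, 27 and 28 months, with 1 mouse to a library. No mouse carried a transgene or received a treatment, and the arteries were digested together with adjacent tissue, so airway, mesothelial, heart and blood cells were present as well. Not every young mouse that the study describes is analysed here, and sex was not used in any comparison because the labels do not give it for every library. The study describes its old mice as males at 20, 24 and 27 months and a female at 28 months. Its young mice were of both sexes.

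Barcodes with at least 500 unique molecular identifiers (UMIs), at least 300 genes and at most 20% mitochondrial UMIs were kept. After removal of 213 doublets, 15409 cells remained, of which 863 could not be named. Cells were clustered without the 34 genes and named from marker genes, so that each name below stands for cells resembling that type. All 10 smooth muscle cell (SMC), fibroblast (FB) and blood endothelial cell (EC) markers were counted in the type of that name in both age groups. Total UMIs per library ran from 6355125 in f3m to 50436562 in f28m. Median UMIs per kept barcode were 801.5 to 841 in 3m, f3m and 24m, 2162 in 20m, 5465 in f28m and 8150 in m27mo, so both young libraries were shallow. These 3 shallow libraries also shared cell barcodes, with 156 in common between 3m and f3m, 131 between 3m and 24m and 215 between f3m and 24m, against at most 4 in any other pair. Most of the shared barcodes lay in airway epithelial cells. Both young libraries are among them, so the age tests were also run with the shared barcodes removed.

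Levels are given as CPM, a gene's UMIs scaled to 1000000 UMIs of all cells of a type in a library, and only types with at least 10 cells in at least 2 libraries, 15 in all, were ranked. The kit counts the ends of transcripts, so a level was compared only with that of the same gene in other cells. RNA free in the suspension was measured for each gene in barcodes with 10 to 100 UMIs. The order across types is a description with no test, since the types come from clusters of the same cells.

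Of the 34 receptors, 33 were counted in named cells. SMCs held the highest mean level of 9 receptors, mesothelial cells of 5, FBs of 3, T, NK or innate lymphoid cells of 3, and ECs, lymphatic endothelial cells, monocytes or dendritic cells and neutrophils of 2 each. Airway epithelial cells, mast cells, plasma cells and the 2 macrophage classes had 1 each. Both macrophage classes held a cluster with a marker of another class and none of their own among its 10 leading genes, so their levels describe mixed cells. For 3 receptors the libraries of the highest type did not overlap those of the next type, and for 7 the highest type ranked first in every library that held it. The highest type stayed the same for 22 receptors whichever library was left out, and for 26 when only cells with at least 1000 UMIs and 500 genes were used. It stayed the same for only 18 when every cell was thinned to 500 UMIs, for reasons that were not tested.

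**Figure D1:**
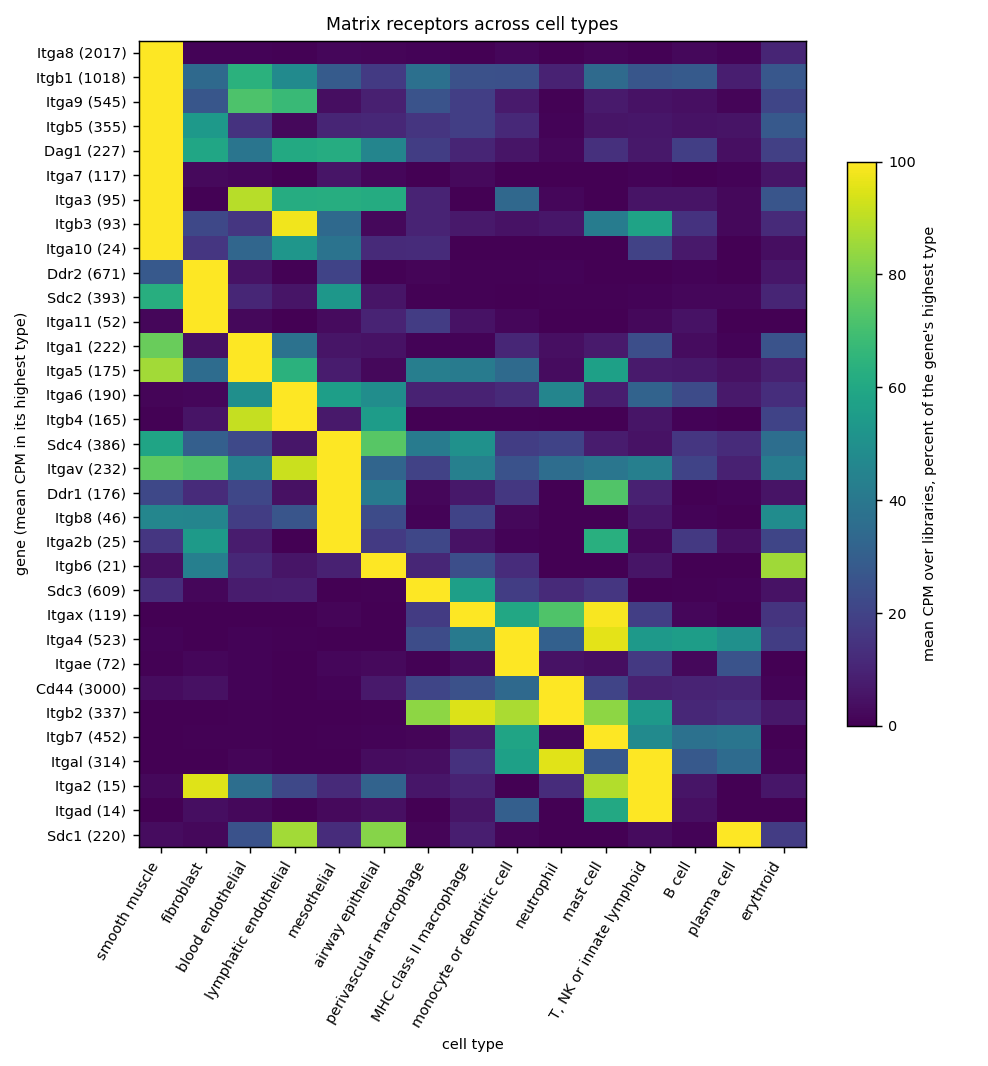
Mean level of each of the 33 counted receptors (rows) in 15 cell types (columns), as a percentage of the gene's own highest type, with that type's mean CPM in parentheses beside the gene. Itga8, Itga7, Ddr2 and Itga11 are bright in a single column, whereas Itgav, Itga5 and Itgb1 are spread over many types.

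Itga8, the alpha chain of a receptor for fibronectin and nephronectin, stood out most. In SMCs it stood at 2350 CPM in 3m, 1740 in f3m, 839 in 20m, 2597 in m27mo and 2558 in f28m. Library 20m was the low one, and all 5 lay above every other type, with the next, erythroid cells, at a mean of 213 CPM. The mean was 9.49-fold that of erythroid cells, whose 2 libraries stood apart at 0 CPM in 24m and 425 CPM in f28m. Free RNA held Itga8 at 22.5 to 257 CPM, highest in m27mo, and the levels in m27mo mesothelial cells (223 CPM), monocytes or dendritic cells (161 CPM), ECs (126 CPM) and FBs (87.0 CPM) were all below that value. In the other 5 libraries FBs were at 0 to 12.6 CPM and ECs at 0 to 6.65 CPM. In 23 cardiomyocytes of m27mo, Itga8 was at 1525 CPM.

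Itga7, the alpha chain of a laminin receptor of contractile cells, was the other gene whose SMC libraries lay above every library of the next type. It was at 168 CPM in both young libraries on 3 counts each, and at 85.1 CPM in 20m, 88.3 in m27mo and 77.6 in f28m. The next type was 17.1-fold lower, and free RNA reached 10.6 CPM. The laminin receptor Dag1 also ranked first in SMCs in 5 of 5 libraries, at 158 to 327 CPM against a mean of 140 CPM in mesothelial cells, but its libraries overlapped those of the next type.

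Itgb1 is the beta chain shared by most matrix-binding alpha chains. It was counted in all 15 types and was highest in SMCs, at 951 and 786 CPM in 3m and f3m and at 1003, 1187 and 1165 CPM in 20m, m27mo and f28m. ECs followed with 547 to 806 CPM and FBs with 287 to 405 CPM. In each of the 5 libraries that held both types, SMCs exceeded ECs, although the ranges over libraries overlapped. Itgb5, a partner of Itgav, behaved alike, with 168 to 463 CPM in SMCs against 95.6 to 303 CPM in FBs and SMCs above FBs in 5 of 5 libraries. Itgb3, the other vascular partner of Itgav, had SMC libraries at 38.3 to 168 CPM and lymphatic endothelial libraries at 87.5 and 94.9 CPM, so that no order could be read between them. In 10 platelet-like cells of f28m, Itgb3 and Itga2b, which together form the platelet fibrinogen receptor, reached 5194 and 6180 CPM. Elsewhere Itga2b had its highest mean in mesothelial cells at 24.6 CPM, within the free RNA range of 2.94 to 65.6 CPM.

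Among the collagen receptors, Ddr2 marked FBs and Itga1 the ECs and SMCs. Ddr2 stood at 719 and 526 CPM in FBs of 3m and f3m and at 461, 761, 850 and 708 CPM in 20m, 24m, m27mo and f28m. Every FB library lay above every library of SMCs, the next type, which ranged from 61.7 to 225 CPM, and the mean was 3.60-fold higher in FBs. Itga11, a collagen-binding alpha chain of fibroblasts, ranked first in FBs in 5 of 6 libraries with 25.2 to 77.7 CPM, 5.61-fold the next mean, but in 3m its FB level of 25.2 CPM was below the free RNA level of 64.4 CPM. Itga1 was at 185 and 114 CPM in ECs of 3m and f3m and at 93.1, 86.9, 404 and 446 CPM in 20m, 24m, m27mo and f28m. The 2 deep libraries were thus far above the rest, and the same libraries were high in SMCs with 302 and 343 CPM. Ddr1, the epithelial discoidin receptor, was highest in mesothelial cells in 6 of 6 libraries at 116 to 259 CPM, with f3m resting on 10 cells and few counts. Itga10 was low everywhere, with its highest mean of 24.1 CPM in SMCs, and Itga2 reached a mean of 14.6 CPM, below its highest free RNA level of 40.1 CPM.

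**Figure D2:**
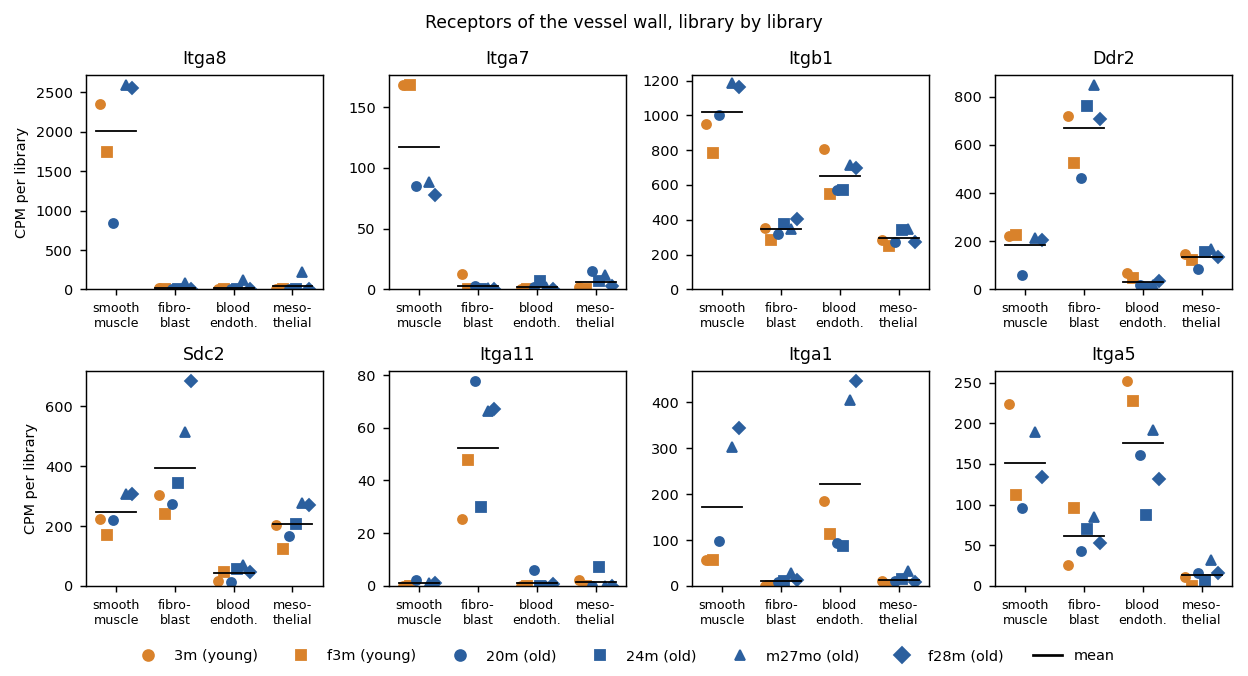
CPM of 8 receptors in 4 cell types, with 1 point per library, orange for young and blue for old, and a black line at the mean. Itga8 and Itga7 separate SMCs and Ddr2 separates FBs from the other types shown, while Itga1 and Itga5 are shared by SMCs and ECs.

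The other laminin receptors, Itga3, Itga6 and Itgb4, belonged to endothelial and epithelial layers as well. Itga6 and Itgb4, which pair with each other in the hemidesmosomes of epithelia, both had their highest mean in lymphatic endothelial cells, at 190 and 165 CPM over 2 libraries. Itgb4 in ECs was at 57.9 to 252 CPM and in airway epithelial cells at 59.6 to 123 CPM, so its 3 leading types overlapped. Itga3 ranged from 73.9 to 112 CPM in SMCs and from 45.6 to 151 CPM in ECs, which likewise could not be ordered.

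Receptors for fibronectin and related ligands were broader. Itga5, the main fibronectin receptor chain, was at 86.9 to 252 CPM in ECs and at 95.8 to 224 CPM in SMCs. Itga9, which binds tenascin-C and Vcam1, stood at 217 to 853 CPM in SMCs and at 224 to 517 CPM in ECs, with SMCs the higher in 3 of 5 libraries. Itgav was highest in mesothelial cells at 114 to 305 CPM, overlapping SMCs at 61.7 to 281 CPM and FBs at 91.1 to 270 CPM. Of the beta chains that pair with Itgav in epithelia and that activate latent Tgfb1, Itgb6 reached 3.24 to 31.5 CPM in airway epithelial cells, inside its free RNA range of 0 to 45.4 CPM, and Itgb8 reached 0 to 108 CPM in mesothelial cells.

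In every SMC, FB and EC library Itgb2 was at most 7.24 CPM and Itgal at most 14.5 CPM, below their highest free RNA levels of 24.8 and 39.2 CPM. Itgb2, the beta chain of the leukocyte adhesion receptors, was at 294 and 380 CPM in neutrophils and at similar means in 4 further myeloid and mast cell groups, from 280 to 320 CPM. Its usual partner in lymphocytes, Itgal, was at 161 to 433 CPM in T, NK or innate lymphoid cells. Itgax, a dendritic cell and macrophage partner of Itgb2, was at 37.1 to 175 CPM in MHC class II macrophages, 1 of the mixed classes, and at 93.0 and 143 CPM in mast cells. Itga4, a Vcam1 receptor, ranged from 198 to 1179 CPM in monocytes or dendritic cells, and its partner Itgb7, a gut-homing receptor chain, was at 429 and 476 CPM in mast cells. Itgae, which binds E-cadherin together with Itgb7, was at 8.63 to 161 CPM in monocytes or dendritic cells. Itgad had a mean of 14.1 CPM in T, NK or innate lymphoid cells, within its free RNA range.

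Itgam, the alpha chain that defines myeloid cells and pairs with Itgb2, had 0 counts in all cells, including 84 neutrophils. In the GENCODE M21 annotation a protein-coding gene on the same strand, Gm49368, covers 68.7% of its exon bases. Gm49368 itself had 38 counts in all cells, of which 10 fell in neutrophils, 7 in MHC class II macrophages and 5 in monocytes or dendritic cells. Whether shared exons removed the Itgam counts was not tested, so the gene is treated as not measurable here. Smaller overlaps, of 3.68% of exon bases for Itga1, 33.5% for Itga10 and 7.32% for Itgad, involved genes that were all at 0 counts.

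The 4 syndecans divided the tissue between them. Sdc2 was highest in FBs in 6 of 6 libraries, at 303 and 239 CPM in 3m and f3m and at 273, 345, 514 and 684 CPM in 20m, 24m, m27mo and f28m, and it exceeded SMCs in 5 of 5 libraries. Sdc4 was highest in mesothelial cells at 248 to 493 CPM, above airway epithelial cells in 6 of 6 libraries, with f3m resting on 10 mesothelial cells and few counts. Sdc1, a plasma cell marker in common use, was at 157 to 336 CPM in plasma cells and at 151 to 227 CPM in airway epithelial cells. Sdc3 was led by macrophages, but its level of 1591 CPM in perivascular macrophages of 3m lay far above the 220 to 387 CPM of the old libraries. Of the 118 cells behind the 3m value, 114 lay in cluster m5, led by Marco, whereas those of f28m and m27mo lay mostly in clusters m1, m2 and m6, so these are levels of different clusters under 1 name. Cd44 was highest in neutrophils, at 4564 CPM in 24m on 31 counts and 1437 CPM in f28m on 393 counts, and followed in monocytes or dendritic cells at 595 to 1715 CPM.

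Chains that pair with each other were then read together. Of 24 known alpha-beta pairs, both chains reached a mean of 50 CPM for 9 in SMCs, 8 in ECs, 8 in lymphatic endothelial cells, 7 in T, NK or innate lymphoid cells and 7 in monocytes or dendritic cells. Erythroid cells, mast cells and MHC class II macrophages had 6 each. The erythroid ones included Itga8 with Itgb1, although Itga8 stood far apart between the erythroid libraries. FBs had 5 such pairs, mesothelial cells 3 and B cells 2. Those of SMCs joined Itgb1 to Itga1, Itga3, Itga5, Itga7, Itga8, Itga9 and Itgav, and Itgav to Itgb3 and Itgb5. FBs had Itgb1 with Itga5, Itga9, Itga11 and Itgav, and Itgav with Itgb5. The same threshold was applied to every gene, although levels of different genes cannot be compared here. Transcript levels above a threshold in summed cells do not show that a pair is assembled.

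ECs were not uniform in these receptors. Cluster 20, led by Gpihbp1, Tcf15, Fabp4, Car4 and Rbp7, which are genes of capillary and fat-handling endothelium, held 176 cells of f28m and 30 of m27mo and at most 2 of any other library. In it Itga6 was at 1091 CPM in f28m and 982 CPM in m27mo, against 38.1 and 27.4 CPM in cluster 6 of the same libraries, which was led by Acer2, Ldb2 and Bmp6. Itga1 was likewise higher in cluster 20, with 899 and 868 CPM against 361 and 351 CPM, as was Sdc3 with 199 and 227 CPM against 54.5 and 54.7 CPM. Other chains ran the opposite way. Itga9 was at 55.2 and 122 CPM in cluster 20 against 594 and 582 CPM in cluster 6, Itgb4 at 4.42 and 0 CPM against 248 and 230 CPM, and Itga5 at 55.2 and 48.7 CPM against 149 and 212 CPM. Cluster 13, with at least 37 cells in each of the 6 libraries, had Itga6 at 0 CPM in both young libraries and at 0, 124, 28.8 and 75.6 CPM in 20m, 24m, m27mo and f28m. These cluster values describe the same cells that were clustered and carry no test. In the 30 m27mo cells of cluster 20, Itga8 was also at 714 CPM, above the free RNA of that library, against 2.21 CPM in f28m.

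**Figure D3:**
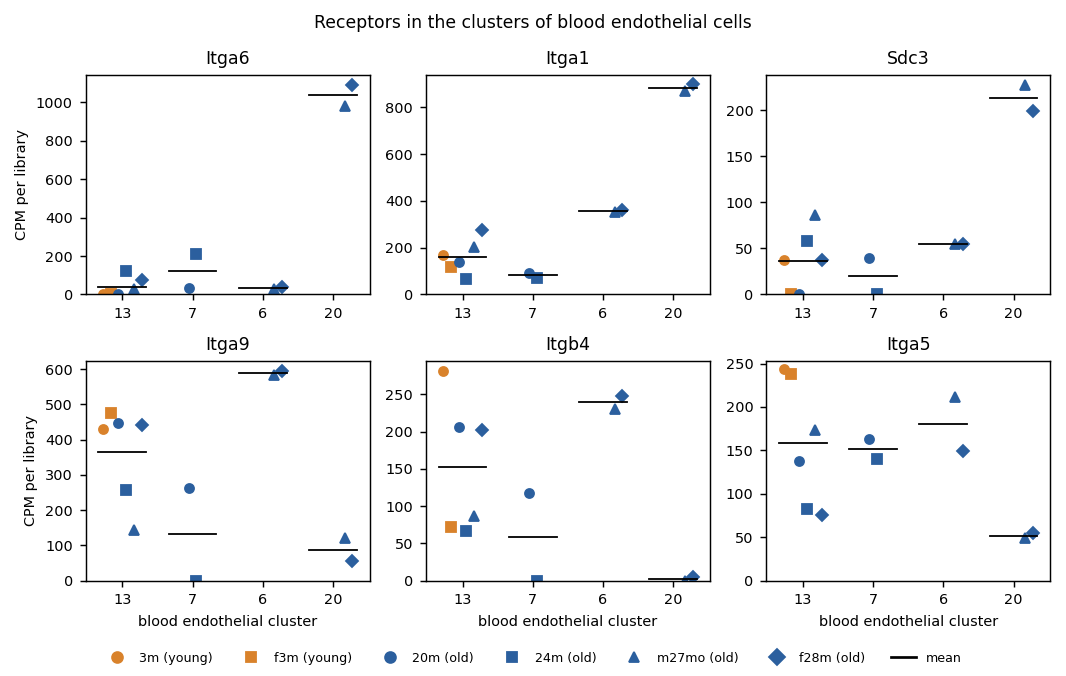
CPM of 6 receptors in the 4 EC clusters, with 1 point per library that had at least 10 cells of the cluster and a black line at the mean. Itga6, Itga1 and Sdc3 are highest and Itga9, Itgb4 and Itga5 lowest in cluster 20, which is drawn from f28m and m27mo alone.

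Within FBs, Sdc2 differed between clusters of the same library. It was at 688 and 517 CPM in cluster 1 of f28m and m27mo, led by Inmt, Svep1 and Abca8a, against 386 and 328 CPM in cluster 11, led by Ptx3, Tnfaip6 and Has1. Ddr2 ran the other way, at 705 and 847 CPM in cluster 1 against 937 and 1133 CPM in cluster 11. In SMCs, Itga8 was at 2075 to 2602 CPM in clusters 0 and 2 of f28m and m27mo. It was at 838 CPM in cluster 25, which held 20m cells alone. Cluster 25 had 7 of 10 SMC markers raised, against 10 in clusters 0 and 2, and its leading genes included Tagln, Tcap and Tnnt2. By raised markers its second class was cardiomyocytes.

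Old and young libraries were compared next, asking whether any receptor changed with age within a cell type. No receptor passed the test in any type. UMI counts were summed per library and type and tested with edgeR. A gene entered when 3 or more libraries had it in over 5% of the type's cells. Of 8 types with enough libraries, 7 were compared. MHC class II macrophages were left out because 1 of their clusters had a monocyte marker and none of their own among its leading genes. Perivascular macrophages had too few young libraries and held most of their young cells in a cluster led by Marco. In all, 31 receptors were tested in at least 1 type, which gave 94 tests, and 0 reached an adjusted p under 0.05. Over all genes 32 of 44044 tests did, 29 of them in mesothelial cells (0.331% of genes tested) and 3 in FBs (0.0449%), with 0 in the other 5 types. At an unadjusted p under 0.05, 6 of the 94 receptor tests passed, 4 higher in old, where 4.71% of all tests were, and 2 lower, where 1.78% were. With the study's added requirement of a fold over 2, these were 4 (4.61% of all tests) and 1 (1.61%). Young cells were few in some types, with 43 SMCs, 119 FBs and 148 ECs.

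In SMCs, FBs, ECs and B cells the age groups drew largely on different clusters. In mesothelial cells and in monocytes or dendritic cells, nearly all young cells lay in a cluster that held only part of the old ones. In SMCs, 39 of 43 young cells lay in cluster s17.4, which held 8 old cells and had no SMC marker among its 10 leading genes. In FBs, cluster 11 held 112 of 119 young and 411 of 1649 old cells, and cluster 1 held 1238 old and 7 young ones. In ECs, cluster 13 held 137 of 148 young and 333 of 1963 old cells, while the 773 old cells of cluster 6 had no young counterpart. In mesothelial cells, cluster 9 held 402 of 406 young and 193 of 396 old cells. In B cells, cluster 3 held 1045 of 1213 young and 71 of 1246 old cells, and cluster 4 held 904 old and 40 young ones. In monocytes or dendritic cells, cluster m0 held 121 of 129 young and 103 of 306 old cells. Cluster m9 of that type held 89 cells of f28m, 2 of 24m and 0 of either young library. Airway epithelial cells were more mixed. Their cluster 10 held 289 of 676 young and 241 of 695 old cells, and cluster 12 held 245 and 268. A fit restricted to cluster 11 for FBs and cluster 13 for ECs was chosen after seeing the data. In it 0 of 10 and 0 of 9 receptors had an adjusted p under 0.05, as did 0% of genes. At an unadjusted p under 0.05 the counts were again 0 and 0, where 4.06% and 3.61% of genes passed. Itga6 and Sdc3 were counted in too few cells of cluster 13 to enter, so this fit cannot speak to them. The part of cluster makeup in the other types was not tested. With the shared barcodes removed, 0 receptors passed in any of the 7 types.

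In SMCs, Itga1, the collagen receptor chain, was the receptor with the lowest unadjusted p. It stood at 55.9 and 56.1 CPM in 3m and f3m, on 1 count each, and at 97.9, 302 and 343 CPM in 20m, m27mo and f28m. The groups did not overlap, and the fitted log2 fold change was 2.73 ± 0.95 (SE, n = 2 young and 3 old, edgeR adjusted p = 0.527), and 2.73 with the shared barcodes removed (adjusted p = 0.529). With 2 young counts in all, the ratio of pooled levels was 5.48 with a 95% counting interval of 1.52 to 45.3. All of the receptors the study followed as signalling partners were also read in SMCs. Itgb1 was at 868 ± 117 CPM in young and 1118 ± 101 CPM in old libraries (SD), with a log2 fold change of 1.01 and adjusted p = 0.572. Sdc2 had a log2 fold change of 1.14 (adjusted p = 0.565), Itgb5 of 0.98 (adjusted p = 0.612) and Itgav of -0.81 (adjusted p = 0.666). Itgb8 was at 0 CPM in SMCs of both young libraries and at 14.9, 41.6 and 48.4 CPM in 20m, m27mo and f28m. It was not tested, since only m27mo and f28m had it in over 5% of SMCs, and no fold is given, since 3 counts over the young SMC sums would be 84.1 CPM. Itgb6 was at 0 to 4.26 CPM in SMCs and was not tested either.

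Across the 18 receptors tested in SMCs, 8 had groups that did not overlap. Sdc4, Itgb1 and Itga1 were higher in old, where 24.4% of all genes were so, and Ddr2, Itgav, Sdc3, Itga7 and Itga3 were lower, where 12.9% were so. Apart from Itgb1, with 17 and 14, these rest on at most 5 young counts per library. The direction of several receptors in SMCs depended on the scaling. With TMM scaling 14 were higher and 4 lower in old with a median log2 fold change of 0.46, while all 7293 genes had a median of 0.68 and 73.6% of them were higher. Scaled by total UMIs alone, 8 were higher and 10 lower with a median of -0.15, and the median of all genes was 0.07 with 52.3% higher. Ddr2 and Itga3, whose CPM values were lower in every old library, accordingly had fitted log2 fold changes of 0.11 and 0.22.

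In FBs none of the 12 receptors tested separated the age groups, where 16.7% of genes did so upward and 7.37% downward. Sdc2 was at 271 ± 45.3 CPM in 2 young and 454 ± 184 CPM in 4 old libraries (SD), a log2 fold change of 0.76 ± 0.50 (SE, edgeR adjusted p = 0.817), and its old values overlapped the young ones through 20m. Itgb1 was at 320 ± 47.2 CPM in young and 362 ± 36.5 CPM in old libraries (log2 fold change 0.23, adjusted p = 0.976). Itgb5 had a log2 fold change of -0.23 (adjusted p = 0.979) and Itgav of -0.38 (adjusted p = 0.954). Itgb6 and Itgb8 did not pass the count filter in FBs, where Itgb8 was at 0 and 47.8 CPM in 3m and f3m, the latter on 1 count, and at 5.36 to 33.3 CPM in old libraries. Of the 12 receptors 9 had a positive and 3 a negative fold change, with a median of 0.24, equal to the 0.24 of all genes. Pericyte marker genes moved with age in the FB sums, at 0 to 25.2 CPM in young and 90.1 to 358 CPM in old libraries over the list of 8, of which 2 were counted in young and 8 in old. Mesothelial markers were lower in old FBs, at 8.04 to 30.0 CPM against 47.8 to 139 CPM. The part of either in these values was not tested.

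In ECs, Itga6 was at 0 CPM in 3m and 22.8 CPM in f3m, on 1 young count in all, and at 33.9, 166, 134 and 210 CPM in 20m, 24m, m27mo and f28m. The groups did not overlap and the log2 fold change was 3.71 ± 1.24 (SE, n = 2 young and 4 old, edgeR adjusted p = 0.857), and 3.70 with the shared barcodes removed (adjusted p = 0.826). The ratio of pooled levels was 14.8 with a 95% counting interval of 2.64 to 584. Free RNA held Itga6 at 67.8 and 51.0 CPM in 3m and f3m, above their EC levels. Cluster 20, which carried most Itga6 in the deep libraries, had 4 young and 209 old cells, and in cluster 13 alone old library 20m was also at 0 CPM. Sdc3, from 0 and 33.6 CPM in young to 39.3 to 77.4 CPM in old, and Itga5, from 228 and 252 CPM in young to 86.9 to 192 CPM in old, likewise did not overlap (adjusted p = 0.901 and 0.909), where 11.8% of genes were higher and 7.77% lower in this way. Sdc3 rested on 2 young counts, with a ratio of pooled levels of 3.37 and a 95% counting interval of 0.927 to 27.9. Of 14 receptors tested, 6 had positive and 8 negative fold changes, with a median of -0.14 against 0.13 for all genes. Markers of B cells were higher in the old EC sums, at 205 to 285 CPM in young and 406 to 818 CPM in old over the list of 8. The same list was higher still in FB sums, at 2234 to 3106 CPM in young and 1243 to 2946 CPM in old. Platelet markers were at 0 CPM in young and 8.46 to 116 CPM in old, T, NK or innate lymphoid markers at 0 CPM and 0.902 to 36.2 CPM, and Schwann cell markers at 0 CPM and 5.38 to 14.5 CPM. Over the young EC sums 3 counts would be 29.0 CPM. All old values of the Schwann list and the lowest of the platelet and lymphoid lists lay under that, so the 0 values in young do not show a rise there. The part of these lists was not tested.

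**Figure D4:**
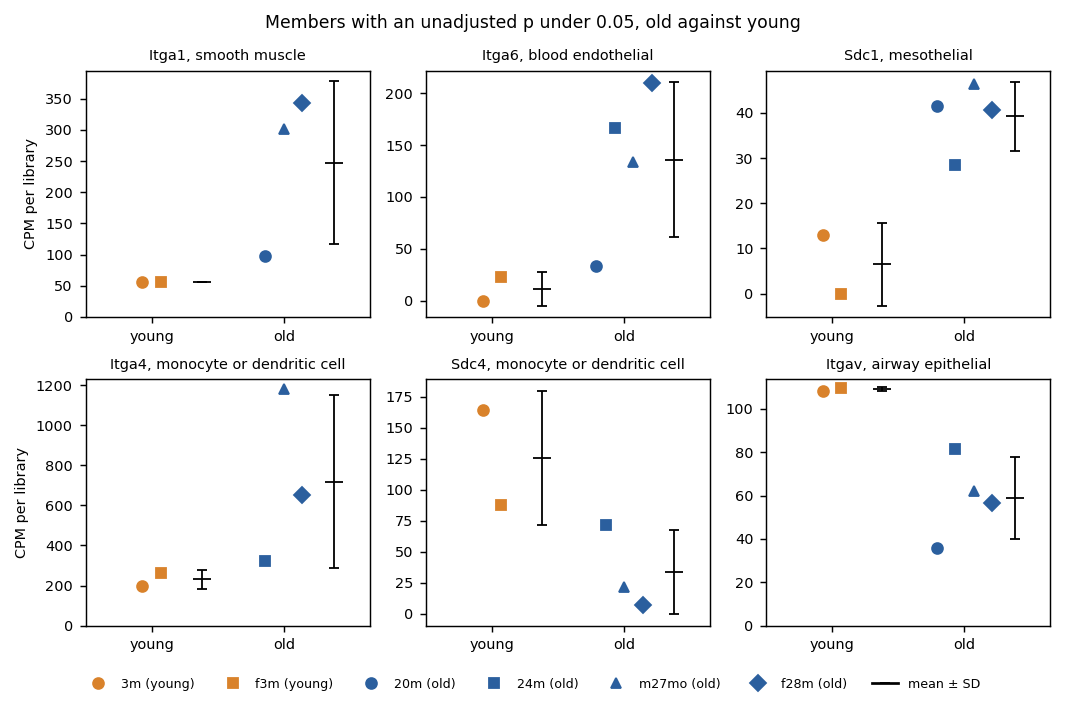
CPM per library of the 6 receptors with an unadjusted p under 0.05, each in the type where it occurred, with young libraries in orange, old in blue and bars for the mean ± SD beside the points. In every panel the groups do not overlap, yet none passed adjustment. The young values of Itga1, Itga6 and Sdc1 rest on at most 6 counts, and those of Itga4 and Sdc4 on 26 and 20. The f3m value of Sdc4 rests on 1 count and that of Itga4 on few.

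In airway epithelial cells, Itgav was at 108 and 110 CPM in 3m and f3m and at 35.7, 81.6, 62.1 and 56.7 CPM in 20m, 24m, m27mo and f28m. All old libraries were lower, with a log2 fold change of -0.97 ± 0.37 (SE, edgeR adjusted p = 0.769), and it was -1.12 (adjusted p = 0.764) with shared barcodes removed. With barcode sharing as a covariate it was -0.33 (adjusted p = 0.999). Itga6, at 110 and 114 CPM in young and 53.6 to 99.3 CPM in old libraries, and Cd44, at 299 and 319 CPM in young and 63.0 to 285 CPM in old, were lower without overlap, as 6.67% of genes were, while Itgb1, at 133 and 142 CPM in young and 165 to 225 CPM in old, was higher, as 9.28% were. Of 14 receptors tested, 6 were higher and 8 lower with TMM scaling, and 9 higher and 5 lower without it. The list of perivascular macrophage markers was lower in old, at 3655 to 5921 CPM against 6149 to 7300 CPM, as was that of mast cells, at 0 to 14.7 CPM against 22.1 to 32.1 CPM. The MHC class II macrophage list was at only 44.2 to 62.2 CPM in the same young sums and 38.9 to 1034 CPM in old. The perivascular value is a sum over the list and need not stand for macrophage RNA. Lists higher in old were those of FBs, at 227 to 532 CPM against 158 to 159 CPM, and cardiomyocytes, at 47.3 to 201 CPM against 40.1 to 45.1 CPM. Their part was not tested.

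In mesothelial cells, Sdc1 was at 12.9 CPM in 3m and 0 CPM in f3m, a library with 10 such cells, and at 41.5, 28.4, 46.4 and 40.7 CPM in 20m, 24m, m27mo and f28m. The log2 fold change was 1.56 ± 0.75 (SE, edgeR adjusted p = 0.731), and with the shared barcodes removed, which left 3m as the only young library, 1.67 (adjusted p = 0.963). Dag1, at 110 and 0 CPM in young and 128 to 246 CPM in old, was the other receptor of 17 whose groups did not overlap, where 15% of genes were higher and 5.22% lower in old in this sense.

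In monocytes or dendritic cells, Itga4 was at 198 and 262 CPM in 3m and f3m and at 325, 1179 and 651 CPM in 24m, m27mo and f28m. The log2 fold change was 1.86 ± 0.82 (SE, n = 2 young and 3 old, edgeR adjusted p = 0.994). Sdc4 ran the other way, at 164 and 87.5 CPM in young and 71.6, 21.4 and 6.72 CPM in old, a log2 fold change of -2.09 ± 0.95 (SE, edgeR adjusted p = 0.994). With the shared barcodes removed, which left out m27mo, they were 1.23 and -2.06 (adjusted p = 0.999 for both), and with barcode sharing as a covariate 0.90 and -0.81. Without 24m, Sdc4 did pass, at -3.79 with adjusted p = 0.038. Cells and counts were few in this type. Library m27mo held 2 cells in cluster m0 and 8 in cluster m15. The young libraries together held 26 counts of Itga4, 20 of Sdc4, 9 of Itgal and 23 of Itgb2, and the old ones 22 of Sdc4. In f3m 1 count was 87.5 CPM in this type. Its Sdc4 and Itgal values thus rest on 1 count each, and those of Itga4 and Itgb2 on few, so the separation of the groups rests on them too. Itgal and Itgb2 were higher in old without overlap, where 14.1% of genes were and 10.2% were lower, from 69.0 and 87.5 CPM to 162 to 378 CPM and from 181 and 175 CPM to 354 to 382 CPM. The markers that define this type were themselves higher in old, at 3644 to 7409 CPM against 2711 to 3339 CPM over the list of 12. SMC markers were at 0 to 8.63 CPM in young and 14.3 to 225 CPM in old, and EC markers at 60.4 to 87.5 CPM and 139 to 176 CPM. Chondrocyte markers were at 8.63 to 87.5 CPM in young, on 1 count in each library, and at 0 to 4.77 CPM in old. Their part was not tested. In B cells, 6 receptors were tested and Itgb1 was higher in old without overlap, at 238 and 144 CPM in young and 289, 353 and 415 CPM in 24m, m27mo and f28m (log2 fold change 0.73, adjusted p = 0.850), where 19.9% of genes were and 13.2% were lower. SMC markers were at 0 to 17.5 CPM in young and 27.1 to 2013 CPM in old B cell sums and FB markers at 0 to 36.0 CPM and 59.4 to 189 CPM, and their part was not tested.

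**Figure D5:**
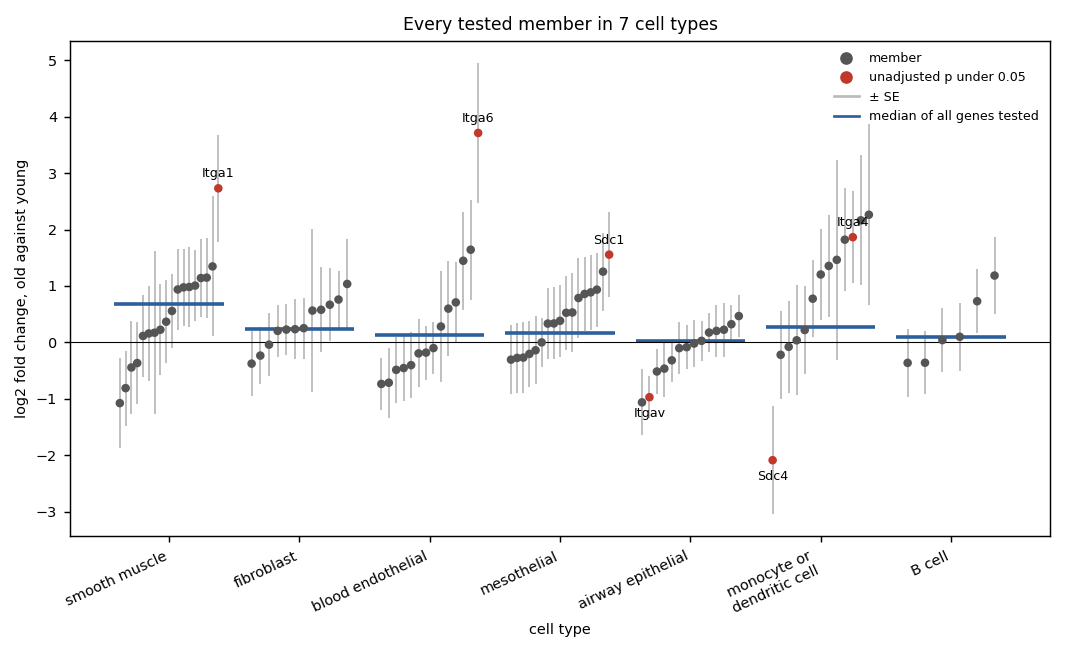
Log2 fold change of every tested receptor, old against young, in 7 cell types, with grey bars for ± SE and a blue line at the median of all genes tested in that type. The 6 red points have an unadjusted p under 0.05 and run from -2.09 for Sdc4 in monocytes or dendritic cells to 3.71 for Itga6 in ECs.

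Whether the age effect differed between wall cell types was tested with library as a term. FBs against SMCs gave 0 called of 10 receptors (0.0359% of 5565 genes were), FBs against ECs 0 of 7 (0.0593% of 5063), and SMCs against ECs 0 of 11 (0.0198% of 5062). At an unadjusted p under 0.05 these were 0, 0 and 1, where 7.96%, 6.32% and 8.97% of genes passed. The 1 receptor was Itgb1, whose log2 fold change with age was higher in SMCs than in ECs by 0.96 ± 0.39 (SE, edgeR adjusted p = 0.475). This depended on the scaling and the libraries. Without TMM it was 0.39 (adjusted p = 0.845), and leaving out 20m, m27mo or f28m gave 0.46 to 0.60. Without TMM the 1 receptor with an unadjusted p under 0.05 was Sdc3, at -3.02 (adjusted p = 0.838), against -2.46 with TMM (adjusted p = 0.588).

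Proteins that act with the receptors gave the same result of 0 called genes. Of 42 genes of the integrin adhesion machinery, 18 to 37 were tested per type and 0 passed in any. The lowest unadjusted p in SMCs was that of tensin 1 (Tns1), which links integrin tails to actin, at 839 and 505 CPM in young and 636, 1597 and 1668 CPM in old (log2 fold change 1.56, adjusted p = 0.527), so that the groups overlapped. Tns1 also had log2 fold changes of 1.43 in ECs (adjusted p = 0.857), 1.39 in mesothelial cells (adjusted p = 0.761) and 1.20 in airway epithelial cells (adjusted p = 0.769). Talin 1 (Tln1), which activates integrins, and Actn4, an actin crosslinker, had log2 fold changes of 1.50 and 1.47 in SMCs (adjusted p = 0.527 for both). Apbb1ip, a Rap1 effector that recruits talin, had 2.14 in monocytes or dendritic cells (adjusted p = 0.994) and 1.79 in B cells (adjusted p = 0.775). In FBs it rested on 2 young counts, with a ratio of pooled levels of 7.46 and a 95% counting interval of 2.06 to 61.7 (adjusted p = 0.703). Cav1, a caveolar protein, had 0 counts in young FBs and 404 in old ones, a level at least 1.53-fold higher against the 3 counts over the young group that a count of 0 allows. Arf6, a GTPase of integrin recycling, had log2 fold changes of -1.55 in mesothelial cells (adjusted p = 0.329) and -1.39 in FBs (adjusted p = 0.792). In mesothelial cells of f3m Arf6 was at 0 CPM, below every old library. The further genes with the smallest p were Parvb in mesothelial cells (1.37), Sharpin (0.96) and Bcar1 (-0.66) in airway epithelial cells, Pxn (1.06) and Tspan4 (-0.96) in ECs, Lims1 (1.25) in B cells, and Lims1 (1.85) and Parvg (-1.43) in monocytes or dendritic cells, with adjusted p from 0.768 to 0.994.

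The 36 matrix ligands of these receptors were tested for 1 to 29 genes per type, again with 0 called. Those with the smallest p pointed in both directions. Fibronectin (Fn1), the ligand of Itga5 and Itga8, came nearest in mesothelial cells, where it was at 369 and 124 CPM in young and at 5.19, 185, 82.6 and 72.5 CPM in 20m, 24m, m27mo and f28m (log2 fold change -1.80, adjusted p = 0.182). Lama2 and Nid1, basement membrane proteins, had -1.55 and -1.32 there (adjusted p = 0.328 and 0.609). Library f3m held 10 mesothelial cells and few counts, and Lama2 was at 0 CPM in it. Col6a1, a microfibrillar collagen chain, was at 593 and 956 CPM in young FBs and 275.9, 415, 285 and 374 CPM in old ones (log2 fold change -1.02, adjusted p = 0.726). Has1, a hyaluronan synthase, and Col6a2 had -1.87 and -0.70 in FBs (adjusted p = 0.8 and 0.811). In ECs the fibrillin Fbn1 was at 0 and 22.8 CPM in young and 33.9, 21.7, 116 and 109 CPM in 20m, 24m, m27mo and f28m (adjusted p = 0.857). It rested on 1 young count, with a pooled ratio of 8.96 and a 95% counting interval of 1.60 to 355. Perlecan (Hspg2), a ligand of dystroglycan, was at 756 and 730 CPM in young ECs and 322, 304, 440 and 503 CPM in old ones (log2 fold change -0.94, adjusted p = 0.857), and the laminin chain Lama4 had 1.03 there (adjusted p = 0.901). In SMCs the proteoglycan Vcan was at 55.9 and 56.1 CPM in young and 29.8, 299 and 202 CPM in 20m, m27mo and f28m (log2 fold change 2.24, adjusted p = 0.531), with a pooled ratio of 4.89 on 2 young counts and a 95% counting interval of 1.35 to 40.4. Lama4 was at 112 and 168 CPM in young SMCs and 78.8, 336 and 450 CPM in old ones (log2 fold change 1.60, adjusted p = 0.537). Both overlapped through 20m. Thbs1 had 0 counts in young SMCs and 42.7 CPM over the old ones, under the 84.1 CPM that 3 young counts would be. In airway epithelial cells Thbs1, Agrn and Lamc1 had -2.03, -0.72 and -0.60 (adjusted p from 0.769 to 0.772), in monocytes or dendritic cells Thbs1 and Fn1 had 1.85 and 0.87 (adjusted p = 0.994 for both), and in B cells Nid1 had -0.38 (adjusted p = 0.910).

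Among 10 cell surface counter-receptors, 0 to 5 were tested per type and 0 were called. Vcam1, the counter-receptor of Itga4, had a log2 fold change of 2.19 in mesothelial cells on 3 young counts (adjusted p = 0.417), with a pooled ratio of 6.12 and a 95% counting interval of 2.02 to 30.3. Jam2 and Jam3 had -1.26 and 1.18 there (adjusted p = 0.749 and 0.904). In young SMCs Jam3 and Vcam1 had 0 counts, and no fold is given, since their old levels of 66.0 and 15.1 CPM lay under the 84.1 CPM that 3 young counts would be. F11r in SMCs rested on 1 young count, with a pooled ratio of 0.718 and a 95% counting interval of 0.128 to 28.4, and Jam2 in FBs on 2, with 2.57 and 0.707 to 21.3. In FBs Vcam1 and Icam1 had 0.85 and 0.94, in ECs Icam2, Jam2 and F11r had -0.43, -0.35 and -0.32, in airway epithelial cells Jam3, F11r and Cdh1 had 0.99, -0.51 and -0.31, and in monocytes or dendritic cells Icam1 had -0.81, with adjusted p from 0.769 to 0.994.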

How the data were processed

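The authors deposited raw UMI counts per gene and barcode from 10x 3′ v3.1 libraries, made per the labels with cutadapt, STAR and STARsolo on GRCm38.p6 (versions not given), with 53647 genes and 6794880 barcodes per library and no cell filter. Here barcodes were filtered as stated, doublets were marked per library, and cells were clustered with scanpy 1.11.5 (2000 variable genes without the 34 receptors, 40 components, 15 neighbours, Leiden resolution 1, no batch correction). Clusters were named from marker lists. Counts were summed per library and type and tested with edgeR 4.0.16 (quasi-likelihood, TMM, robust; Benjamini-Hochberg over all genes of a type; adjusted p under 0.05), on types with 10 cells in both young and at least 2 old libraries. The library was the unit of replication in place of the mixed model over cells in the study.

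The receptors and gene lists were chosen with earlier results of these data known. All receptors were accounted for; those named with age had an unadjusted p under 0.05, separated the groups or served as receptors in the study's signalling pairs, and up to 3 genes per list and type were named by smallest p, except a gene that is not reported here. Alternatives were a stricter cell filter, a lower mitochondrial limit, doublets kept, other gene filters, no TMM, DESeq2 1.42.0, barcode sharing as a covariate, shared barcodes removed, thinning, and each library left out. A fit on single clusters was chosen after seeing the data. The procedure was tested on simulated data with 200 changed genes per type. At 4-fold it recovered 0 in SMCs, 3 in monocytes or dendritic cells, 13 in FBs and 20 in ECs. In mesothelial cells it recovered 42, in B cells 60 and in airway epithelial cells 137. At 16-fold it recovered from 111 in SMCs to 199 in B cells and airway epithelial cells. Most simulated 4-fold changes in SMCs, FBs and ECs were thus missed. Unchanged genes were also called. At 4-fold these false calls were 0 in SMCs and FBs, 4 in ECs, 9 in B cells and 10 in airway epithelial cells. At 16-fold they ran from 3 in monocytes or dendritic cells to 18 in B cells, with 13 in SMCs. Intervals and floors cover counting error only. Only 35 of the 53647 versioned gene identifiers, and 0 of the receptors', equal those of GENCODE M21, so no coordinates are given.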

Additional observations from a re-analysis of the deposited data

Results flagged for a closer look

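Among old libraries, Dixon's gap was exceeded in 2 of 57 groups of 4 tested, where chance alone marks about 1 in 20. In ECs, Itgb5 was at 123 CPM in 24m against 29.8 to 39.3 CPM in the other old libraries. In ECs, Sdc4 was at 115 CPM in 20m against 57.9 to 62.3 CPM in the others.

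For 3 receptors the age groups separated in opposite directions in a pair of cell types. Over all genes, 11.8% were higher and 7.77% lower without overlap in ECs, and 9.28% and 6.67% in airway epithelial cells. The shares were 24.4% and 12.9% in SMCs and 14.1% and 10.2% in monocytes or dendritic cells. The share of genes that separated in opposite directions was not computed. Itga6 had a log2 fold change of 3.71 in ECs and -0.52 in airway epithelial cells, with all old libraries above the young ones in the former and below them in the latter. Sdc4 had 0.98 in SMCs and -2.09 in monocytes or dendritic cells, where f3m held 1 count of it. The differences for Itga6 and Sdc4 were not tested. Sdc3 had 1.64 in ECs and -0.44 in SMCs, and that difference was tested (-2.46 ± 1.38, SE, edgeR adjusted p = 0.588). It rested on 2 young counts in ECs and 4 in SMCs.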

How the results depend on the processing

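The count of receptors called with age was 0 in 107 of 108 alternatives over 7 cell types, and 1 (Sdc4) in monocytes or dendritic cells without 24m; leaving out each library gave 0 to 1 there. The number of receptors with the same highest type fell from 33 to 18 when cells were thinned to 500 UMIs and ranged from 27 to 32 when 1 library was left out. Some FB log2 fold changes near 0 changed sign, namely Itgav at 0.59 with barcode sharing as a covariate and Itgb5 at 0.11 with no gene filter. Leaving out each library gave -0.83 to 0.076 for Itgav, with the highest without 3m, -0.81 to 1.37 for Itgb5, with the highest without 3m, and -0.072 (without f3m) to 0.74 for Itgb1. The causes were not tested. SMCs could not be fitted with that covariate. With the stricter cell filter SMCs and ECs had no fit, so it cannot speak to them. It left 1 young library in FBs, B cells, mesothelial cells and monocytes or dendritic cells. Keeping doublets also left 1 young library in mesothelial cells. Over all genes, calls went from 0 to 33 higher and 132 lower in airway epithelial cells with no gene filter, and in B cells from 0 to 12 and 6 with no filter and 15 and 7 with filterByExpr. In mesothelial cells they went from 5 higher and 24 lower to 2 and 49 with no filter. Without 24m they were 17 and 59 in mesothelial cells, 19 and 33 in B cells and 0 and 25 in monocytes or dendritic cells. The direction of several other receptors in SMCs depended on the scaling, as given above. The log2 fold changes that follow kept their sign under every alternative run. They ran from 2.15 to 3.34 for Itga1, 0.21 to 1.56 for Itgb1, 0.33 to 1.67 for Itgb5, 0.51 to 1.70 for Sdc2 and -1.42 to -0.21 for Itgav in SMCs, from 0.45 to 1.63 for Sdc2 in FBs, from -1.32 to -0.33 for Itgav in airway epithelial cells, and from 0.90 to 2.41 for Itga4 and -3.79 to -0.79 for Sdc4 in monocytes or dendritic cells. Leaving out 3m lowered Itga6 in ECs to 2.54 (adjusted p = 0.862). Without f3m for Itga6 in ECs, and without 3m for Sdc1 in mesothelial cells, the remaining young library had 0 counts and no fold is given. The other alternatives gave 1.18 to 1.67 for Sdc1. No paired analysis was possible because the labels give no numbers that tie young to old mice.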
